A study of Mus musculus with 5 samples.

Results

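The cells described here were kidney macrophages that carried fibronectin (Fn1) RNA, and they numbered 230 of the 72896 cell barcodes in the series. They were chosen by raw UMI counts, where a UMI (unique molecular identifier) stands for an RNA molecule captured once. A cell was kept if at most 30% of its UMIs were mitochondrial and it had at least 200 genes, which left 60043 cells. A kept cell counted as a macrophage with at least 5 UMIs of C1qa, C1qb and C1qc together, which encode complement C1q and mark tissue macrophages. It also had to carry at most 1 UMI of Ctsk, at most 1 of Mki67 and Top2a, at most 1 of Cd3e, Cd3d and Cd3g, at most 2 of Egfl7 and Plvap, and 0 of Col1a2, limits that removed osteoclast-like, dividing, T, endothelial and fibroblast profiles. Of the 3516 macrophages, those with at least 5 UMIs of Lyz2 (lysozyme) and at least 2 of Fn1 are called Fn1-positive macrophages. The 2195 macrophages with at least 5 Lyz2 UMIs and 0 Fn1 UMIs served as the Fn1-negative comparison.

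The mice were male wild-type C57BL/6 animals of 8 to 10 weeks. Controls received vehicle, and AKI mice received aristolochic acid I (AAI), a plant toxin of the proximal tubule, by intraperitoneal injection at 3 mg/kg every 3 days over 2 weeks. CKD mice received the same course and were then left without AAI for 2 weeks. Whole-kidney suspensions gave 1 control, 2 AKI and 2 CKD droplet libraries, named control, AKI 1, AKI 2, CKD 1 and CKD 2, and the sources used here do not say whether the libraries of a group came from separate animals.

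Macrophages of an injured kidney come from resident cells and from blood monocytes that enter the tissue and mature there. Monocytes leave the blood through the chemokine receptor Ccr2, carry Ly6c2, and lose it as they acquire C1q. Fibronectin is a secreted glycoprotein of provisional matrix that binds integrins and syndecans on neighbouring cells. Fibroblasts, endothelium and macrophages can all make it, and it is laid down early in wound repair.

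Depth differed between the libraries. They held 10873 to 22034 barcodes and 90028670 to 121316769 UMIs, and 61.3% to 88.9% of barcodes were kept. The median kept cell had 3151 to 5774.5 UMIs. T lymphocytes (at least 3 Cd3 UMIs, fewer than 5 C1q UMIs) made up 12.4% of kept control cells and 34.3% to 66.2% of the others, so shares are given of macrophages. Control and CKD 2 shared 132 barcodes, 99 of them over 20 times deeper in CKD 2, and none of the latter was a control macrophage. Of the 230 cells, 1 in AKI 2 had a barcode also kept in the control and 3 in AKI 1 had a barcode also kept in CKD 1. A score for resemblance to simulated doublets marked 6 of 77, 5 of 119, 3 of 18 and 0 of 16 of them in AKI 1, AKI 2, CKD 1 and CKD 2.

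Fn1-positive macrophages were not detected in the control at this depth and made up a larger share of macrophages in both AKI libraries than in either CKD library. The control held 0 of 686 macrophages, which allows a share of up to 0.437% (3 counts of 686). AKI 1 held 77 of 648, or 11.9% (exact 95% binomial interval 9.49 to 14.6), and AKI 2 held 119 of 978, or 12.2% (10.2 to 14.4). CKD 1 held 18 of 968, or 1.86% (1.11 to 2.92), and CKD 2 held 16 of 236, or 6.78% (3.92 to 10.8). The libraries of the 2 groups did not overlap, although both CKD libraries differed from each other by more than their intervals. The group means were 12.03% in AKI and 4.32% in CKD, a difference of -7.71 percentage points against a pooled SD between libraries of 2.46 points. With 2 libraries against 2 an exact permutation test cannot go below p = 0.333, so the shares were not tested. Intervals and the limit for 0 cover counting error only.

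**Figure D1:**
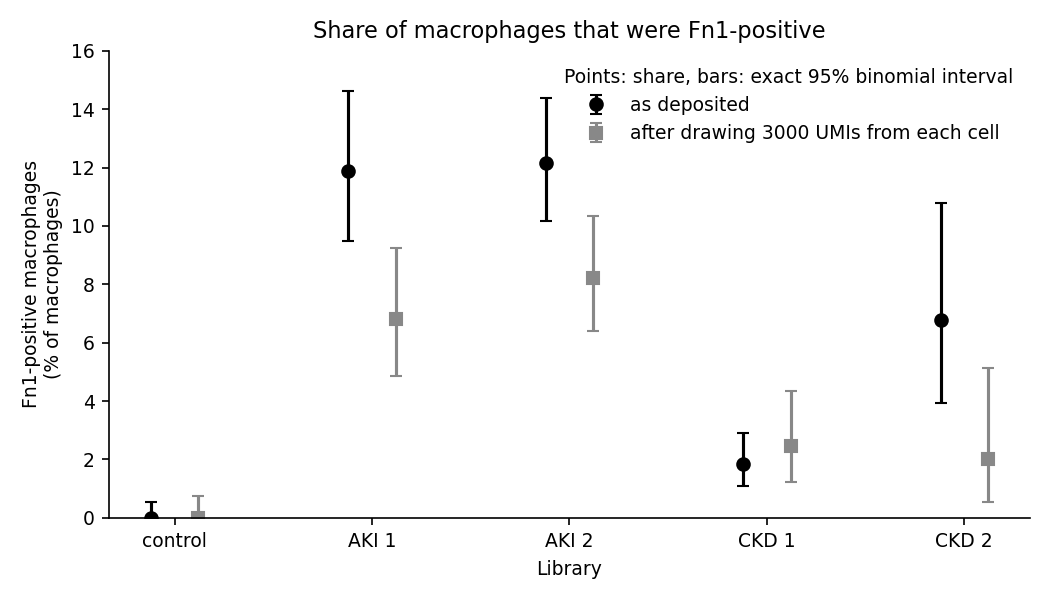
Share of macrophages that were Fn1-positive, in percent, in each of the 5 libraries; black circles are the counts as deposited, grey squares the same gate after drawing 3000 UMIs from each cell, and bars are exact 95% binomial intervals. The control is at 0, AKI 1 and AKI 2 are at 11.9% and 12.2%, and CKD 1 and CKD 2 at 1.86% and 6.78%.

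The gate favours deeply sequenced cells, and depth moved with it. The median Fn1-positive cell had 15111, 15906, 11019.5 and 18695 UMIs in AKI 1, AKI 2, CKD 1 and CKD 2, against 10058, 9576.5, 4531.5 and 11360 in Fn1-negative cells of the same libraries and 4277 in the control. After 3000 UMIs had been drawn from every macrophage with at least that many, the control share was 0 of 502, beside 6.81% of 558 and 8.22% of 791 in AKI, and 2.46% of 448 and 2.03% of 197 in CKD. The AKI and CKD shares did not overlap on that scale either, although the intervals of AKI 1 (4.86 to 9.23) and CKD 2 (0.556 to 5.12) did. Lyz2, the other gene that members had to carry, moved in parallel: at least 5 Lyz2 UMIs were found in 47.2% of control macrophages, 92.6% and 90.4% of AKI macrophages, and 54.5% and 84.7% of CKD macrophages. Any Fn1 UMI, without regard to Lyz2, was found in 0.437% of control macrophages, 17.0% and 19.2% in AKI, and 4.03% and 13.1% in CKD. In T lymphocytes, which should lack Fn1, 0.351% of control cells had an Fn1 UMI, 1.85% and 2.58% in AKI, and 1.13% and 1.22% in CKD, at median depths of 3597 to 5913.5 UMIs. At the gate's limit of 2 UMIs the T lymphocyte shares were 0.0878% to 0.413%.

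Because Fn1 and Lyz2 define the gate, their levels describe the cells and were not tested. Levels are UMIs per 10000 UMIs of all genes, summed over the cells of a library. Fn1 (GRCm39 chromosome 1, 71624673 to 71692419, minus strand) stood at 10.9 and 10.7 in AKI 1 and AKI 2, and at 4.92 and 5.10 in CKD 1 and CKD 2. The median cell carried 8, 10, 5 and 4.5 Fn1 UMIs, and the highest cell 198, 149, 19 and 53. Over 5 UMIs were carried by 68.8% and 68.1% of the cells in AKI and by 44.4% and 31.3% in CKD, so the CKD cells lay nearer to the threshold. Exactly 2 UMIs, just inside the gate, were found in 8, 13, 4 and 2 cells. Just outside it, with 1 Fn1 UMI and the same Lyz2 limit, were 2 control cells, 29 and 57 AKI cells, and 10 and 13 CKD cells.

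Fn1-positive macrophages, chosen for their Fn1 UMIs, held the largest share of Fn1 RNA of the cell classes compared in AKI but not in CKD. They held 42.9% and 44.8% of all Fn1 UMIs of kept cells in AKI 1 and AKI 2, and 11.97% and 16.8% in CKD 1 and CKD 2. Other C1q macrophages held 23.8% and 33.0% in AKI, and 19.9% and 14.1% in CKD. Cells with Col1a2, a collagen of fibroblasts, held 15.8% and 9.37% in AKI and 12.2% and 20.04% in CKD. Monocytes held 7.68% and 18.2% in CKD, and kept cells of no class named here held 11.7% and 9.59% in AKI and 40.4% and 25.5% in CKD. In the control, 40.4% of the Fn1 UMIs lay in cells with Egfl7 or Plvap, genes of endothelium, and 31.0% in Col1a2 cells. These shares depend on how many cells of each type survived the dissociation.

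**Figure D2:**
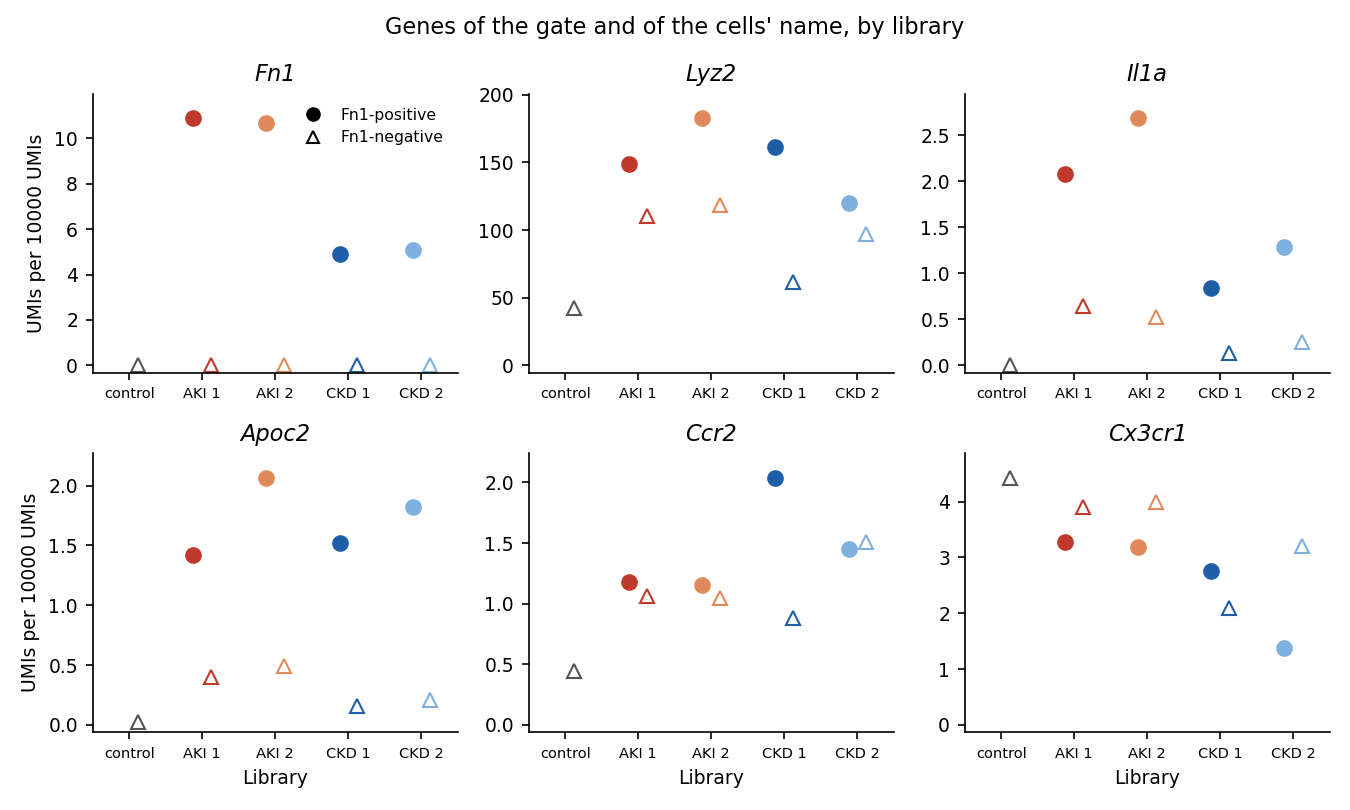
Levels of Fn1, Lyz2, Il1a, Apoc2, Ccr2 and Cx3cr1 in UMIs per 10000 by library, with filled circles for Fn1-positive and open triangles for Fn1-negative macrophages. Il1a and Apoc2 were higher in the Fn1-positive cells of all 4 libraries, while Ccr2 was at 1.18 and 1.15 against 1.06 and 1.05 in AKI 1 and AKI 2.

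Il1a and Apoc2, the other genes by which these cells had been recognised, are also given as descriptions. Il1a (chromosome 2, 129140291 to 129152098, minus strand) encodes interleukin 1 alpha, an alarm cytokine that needs no secretion signal. Its level was 2.07, 2.69, 0.84 and 1.28 in AKI 1, AKI 2, CKD 1 and CKD 2, against 0.65, 0.53, 0.14 and 0.25 in Fn1-negative cells and 0.01 in the control. An Il1a UMI was seen in 62.3%, 60.5%, 27.8% and 50% of the Fn1-positive cells, and in 15.2%, 18.2%, 4.2% and 11.7% of the Fn1-negative cells. After thinning to 3000 UMIs these shares were 31.2%, 29.8%, 5.56% and 12.5% against 8.11%, 10.6%, 3.69% and 5.63%. In T lymphocytes 0.0878% to 0.947% had an Il1a UMI. Fn1-positive cells thus stood higher in every library, at full and at equal depth, with the smallest gap at equal depth in CKD 1, where 1 cell held 42.9% of the Il1a UMIs. At equal depth the intervals in CKD 1 (0.141 to 27.3) and CKD 2 (1.55 to 38.3) take in the Fn1-negative shares.

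Apoc2 (chromosome 7, 19405504 to 19411877, minus strand) encodes the activator of lipoprotein lipase. Its level was 1.42, 2.07, 1.52 and 1.82 in Fn1-positive cells and 0.40, 0.49, 0.16 and 0.21 in Fn1-negative cells of the same 4 libraries. It was higher in the Fn1-positive cells of every library, but 1 cell held 68.4% of their Apoc2 UMIs in CKD 1 and 44.4% in CKD 2. Lyz2 (chromosome 10, 117111557 to 117118346, minus strand) stood at 148, 183, 161 and 120 against 110, 119, 61.9 and 97.3.

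The label of the cells as recent arrivals from the blood was checked against monocyte genes, which differed in direction. Ccr2 stood at 1.18, 1.15, 2.04 and 1.45 in Fn1-positive cells and at 1.06, 1.05, 0.886 and 1.51 in Fn1-negative cells, and in the AKI libraries the fold change was 0.02 on the log2 scale (SE 0.11, edgeR adjusted p = 0.94). Monocytes by a stricter gate had Ccr2 at 2.03 to 4.80. That gate asked for at most 1 C1q UMI, at least 5 of Ly6c2, Plac8, Chil3 and Hp together, and at least 1 of Csf1r. It also asked for at least 5 Lyz2 UMIs and at least 1 of Ly6c2 and Chil3. Ly6c2 was at 0, 0.01, 0.32 and 0 in Fn1-positive cells and at 0.74 to 5.42 in those monocytes. Vcan reached at most 0.08. Plac8, in contrast, was at 0.723, 0.191, 2.16 and 2.30 in Fn1-positive and at 0.179, 0.153, 0.552 and 0.428 in Fn1-negative cells, higher in every library. The summed monocyte list was 7.45, 6.18, 24.1 and 17.9 in Fn1-positive cells and 2.33, 2.86, 14.5 and 10.9 in Fn1-negative cells. It was 44.2 to 82.8 in the stricter monocytes, and the Fn1-positive sum lay between both in every library. The stricter gate selected on Ly6c2, Plac8, Chil3 and Hp, which are members of this list. The high sum and Ly6c2 level of those monocytes thus follow in part from their gate, and this order is a description. S100a4 alone made up 5.21, 4.51, 18.9 and 13.6 of the Fn1-positive sums. T lymphocytes had sums of 7.16, 7.38, 13.7 and 11.9, so this sum is not particular to monocytes. The genes gave no single answer on the label, and the cells are named by their gate.

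What else set Fn1-positive apart from Fn1-negative macrophages was tested within the AKI libraries, the 2 with at least 20 cells of each, with the library as a block. The gate had been drawn from clusters of these same cells, so genes that travel with Fn1 were in part chosen with it. Of 10461 genes 1890 passed (edgeR, adjusted p under 0.05), which is 18.1% of those tested, 944 higher (9.02%) and 946 lower (9.04%). At 3000 UMIs per cell 937 genes passed, 832 of them among the 1890, and DESeq2 called 535, all among the 1890. The summed libraries held 1362735 and 2088664 UMIs in Fn1-positive and 5330981 and 7110818 in Fn1-negative cells. A gene's difference could reflect more RNA per cell or other cells within the gate, and these cannot be told apart in sums. CKD 1 and CKD 2, with 18 and 16 cells, did not enter this test, and their levels are given for genes whose values are printed for 4 libraries.

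Genes of matrix and its processing made up the list with the most members higher: 14 of 23 tested rose, 3 fell, and the median was 1.18 against 0.008 for all genes. Adam8, a surface metalloprotease, was at 0.314, 0.797, 1.20 and 0.506 in Fn1-positive against 0.0541, 0.0798, 0.484 and 0.438 in Fn1-negative cells of AKI 1, AKI 2, CKD 1 and CKD 2 (log2 fold change in AKI 2.93, SE 0.22, adjusted p = 2.02e-06). Ecm1, extracellular matrix protein 1, was at 0.65, 0.93, 0.44 and 0.27 against 0.097, 0.127, 0.305 and 0.453 (log2 2.69 in AKI, SE 0.16), so CKD 2 had the opposite order. Plaur, the receptor of urokinase, was at 1.45, 1.5, 1.40 and 2.06 over the 4 libraries against 0.364, 0.316, 0.454 and 0.524. Plaur was higher in every library, and in AKI its log2 fold change was 1.99 (SE 0.13, adjusted p = 5.92e-07). Thbs1 (thrombospondin 1) rose as well (log2 1.74) and was higher in all 4 libraries, and Mmp12, the macrophage elastase, rose by 1.78 (SE 0.22) with 1.42, 3.78, 8.55 and 4.93 against 0.616, 0.693, 0.938 and 2.70. A minority of Fn1-positive cells carried Mmp12: 23.4%, 31.9%, 16.7% and 37.5%, against 7.49%, 8.62%, 10.8% and 10.5% of Fn1-negative cells. At equal depth these shares were 9.09%, 22.8%, 16.7% and 18.75% against 5.92%, 5.29%, 9.85% and 8.75%. The Fn1-positive intervals in AKI 1 (3.73 to 17.8), CKD 1 (3.58 to 41.4) and CKD 2 (4.05 to 45.6) take in the Fn1-negative shares. In AKI 2 the interval (15.5 to 31.6) lay above the Fn1-negative share. With DESeq2, Mmp12 no longer passed (adjusted p = 0.0955).

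Spp1 (osteopontin) rose by 1.39 on the log2 scale (SE 0.15, adjusted p = 3.22e-05), yet its level rested on few cells. It was at 48.9 and 30.3 in AKI against 12.2 and 14.8, and the highest single cell held 51.7% and 33.6% of the Fn1-positive cells' Spp1 UMIs. In CKD the order was mixed, with 14.3 against 30.4 in CKD 1 and 22.1 against 3.87 in CKD 2, where 1 cell held 75% of the Fn1-positive cells' Spp1 UMIs. T lymphocytes of AKI had 24.4 and 20.8. The 3 genes of the matrix list that fell were Mmp9, a gelatinase (log2 -4.15, with 1 and 3 UMIs in the Fn1-positive cells of AKI 1 and AKI 2), Fgl2 (log2 -2.01) and F13a1, a coagulation factor subunit (log2 -1.77).

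Receptors and adhesion molecules that bind fibronectin or related ligands split. Of 17 tested, 8 rose and 3 fell, with a median of 0.41. Itga5, the alpha subunit of the classical fibronectin receptor, was at 0.664 and 0.525 against 0.203 and 0.143 (log2 1.66, SE 0.16, adjusted p = 1.49e-05), and at 0.759 against 0.318 in CKD 1 but 0.27 against 0.358 in CKD 2. Sdc1 (syndecan 1) was at 0.175, 0.267, 0.44 and 0.27 against 0.0504, 0.0406, 0.179 and 0.0957, higher in every library (log2 2.19 in AKI, SE 0.30, adjusted p = 0.00026). Cd44, a hyaluronan receptor, rose by 0.78. Vcam1, a ligand for integrins on leukocytes, fell by 2.53 on the log2 scale, with 0.635, 0.544, 0 and 0.338 in Fn1-positive against 2.59, 3.59, 0.497 and 1.37 in Fn1-negative cells. Itga9 and Sdc4 also fell (log2 -1.80 and -0.72).

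The genes with the largest rises among those above 1 UMI per 10000 included Arg1, which splits arginine. Arg1 (chromosome 10, 24791118 to 24803817, minus strand) was at 0.643 and 1.43 against 0.00373 and 0.0448 in AKI (log2 5.25, SE 0.26, adjusted p = 5.98e-08). It was seen in 18.2%, 28.6%, 11.1% and 6.25% of Fn1-positive cells against 0.405%, 1.27%, 1.20% and 4.09% of Fn1-negative cells and 0.32% to 0.38% of T lymphocytes. At 3000 UMIs the shares were 9.09%, 16.7%, 5.56% and 0% against 0%, 0.481%, 1.23% and 1.25%, with 0 of 16 cells in CKD 2. A minority of the gated cells carried Arg1 in each library, and the gap was clear of the counting error in AKI only. Crip1, a LIM domain protein, was at 15.9, 16.4, 17.8 and 24.8 against 3.49, 3.33, 8.79 and 8.92 (log2 2.11, SE 0.08, adjusted p = 4.08e-09), and unlike Arg1 it was abundant in all 4 libraries. Clec4e, a receptor for damaged cells and mycobacterial lipids (log2 2.86), AA467197 (log2 2.61), Rhoc, a small GTPase (log2 2.33), and Lsp1, a leukocyte actin-binding protein (log2 2.19), followed. S100a4, Syngr1 and the chemokine Cxcl14 rose by 2.24, 2.37 and 2.15. In CKD, Syngr1 was lower in both libraries, at 0.040 and 0.135 against 0.0682 and 0.151, and Cxcl14 was lower in CKD 2, at 0.371 against 0.403. Clu (log2 2.43) and Lcn2 (log2 2.54), both made by injured tubule, rested on few cells: the highest held 80.7% and 49.7% of Clu UMIs and 49.6% and 42.6% of Lcn2 UMIs in AKI 1 and AKI 2. Neither passed once cells with high doublet scores were left out (adjusted p = 0.203 and 0.119).

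Genes of lipid-associated macrophages rose more often than they fell, 10 against 2 of 22 tested, with a median of 0.26. Cd9, a tetraspanin of scar-associated macrophages, was at 6.43, 6.33, 4.6 and 4.73 in Fn1-positive against 1.42, 1.41, 1.67 and 1.56 in Fn1-negative cells (log2 2.04 in AKI, SE 0.09, adjusted p = 1.6e-08). The Fn1-positive level was higher in every library, although 1 cell held 54.8% of the Cd9 UMIs in CKD 1. At 3000 UMIs a Cd9 UMI was seen in 71.4%, 67.5%, 27.8% and 62.5% of Fn1-positive and 20.4%, 22.6%, 35.7% and 21.9% of Fn1-negative cells, and the CKD 1 share of the 18 Fn1-positive cells had an interval of 9.69 to 53.5 that takes in the Fn1-negative share. Ctsd (cathepsin D, log2 1.51) was at 17.1, 23.3, 10.7 and 10.2 against 6.10, 6.71, 5.11 and 6.18. Trem2, a lipid receptor, rose by 0.96 (SE 0.09, adjusted p = 1.01e-05), with 4.86 and 5.97 against 2.40 and 2.68 in AKI, but CKD 2 had 3.11 against 3.63. Gpnmb rose by 2.58 in AKI (0.372 and 2.09 against 0.123 and 0.228) and missed the threshold with DESeq2 (adjusted p = 0.0544). In CKD it was at 1.92 against 0.185, with 87.5% of the UMIs in 1 cell, and at 0.236 against 0.751, the opposite order. Apoe, the apolipoprotein that macrophages make in bulk, fell by 0.44, from 261 and 303 to 209 and 245, while CKD 2 had 151 against 118.

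The chemokine RNAs moved in both directions. Of 16 chemokines tested, 5 rose, 11 fell, and the median was -1.11. Ccl8, a ligand of monocyte receptors, was at 1.30, 1.14, 0 and 0.135 in Fn1-positive against 29.9, 28.7, 3.44 and 6.41 in Fn1-negative cells (log2 -4.72 in AKI, SE 0.08, adjusted p = 3e-12). Its neighbours on chromosome 11 behaved alike. Ccl12 was at 2.97, 3.05, 2.40 and 5.84 against 16.1, 17.6, 9.21 and 12.8 (log2 -2.61), and Ccl7 at 4.23, 3.63, 5.36 and 6.28 against 18.2, 16.4, 8.0 and 7.55 (log2 -2.27). For all 3 the Fn1-positive cells were lower in every library. Ccl7, Ccl12 and Ccl8 lie in that order on the plus strand of GRCm39 chromosome 11, at 81936532 to 81938351, 81992645 to 81994466 and 82006007 to 82007625.

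Other monocyte and lymphocyte attractants were lower too. Ccl2 was at 6.42 and 7.80 against 19.1 and 18.7 in AKI (log2 -1.54) and had no common direction in CKD, with 12.99 against 14.1 and 21.9 against 15.4. Ccl3 and Ccl4 fell by 1.81 and 1.32, and Pf4 (platelet factor 4) by 2.06. Cxcl13, a B cell attractant, had 1 UMI among 3466177 in Fn1-positive cells and 1275 among 12500460 in Fn1-negative cells of AKI, a ratio of 354 (counting interval 63.3 to 13975). The 5 that rose were Cxcl3, Cxcl1 and Cxcl2, which attract neutrophils, and Ccl6 and Ccl9. Cxcl1 (log2 1.06) had the opposite order in CKD 1, with 1.52 against 1.92. Cxcl3 was at 0.862, 1.05, 1.52 and 1.89 against 0.0858, 0.111, 0.273 and 0.227 (log2 3.15 in AKI, SE 0.16, adjusted p = 5.85e-08). Cxcl2 was at 53.0, 55.5, 62.4 and 87.7 against 33.8, 34.5, 42.1 and 48.4 (log2 0.54, SE 0.05). Ccl6 was at 5.93, 11.3, 38.5 and 15.5 against 2.52, 3.73, 1.66 and 4.95 (log2 1.30). Each of these 3 was higher in the Fn1-positive cells of every library.

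The promoters of the alarm cytokine that stood higher and of both chemokines with the largest fold among the neighbours that stood lower are printed to show what lies at their start sites. They are RefSeq sequences of GRCm38.p6, 250 bases before to 50 after the start, read 5′ to 3′ on the gene's strand. Capitals mark TATAAA and TGANTCA, searched on both strands.
Il1a, chr2:129309923-129310222, minus strand: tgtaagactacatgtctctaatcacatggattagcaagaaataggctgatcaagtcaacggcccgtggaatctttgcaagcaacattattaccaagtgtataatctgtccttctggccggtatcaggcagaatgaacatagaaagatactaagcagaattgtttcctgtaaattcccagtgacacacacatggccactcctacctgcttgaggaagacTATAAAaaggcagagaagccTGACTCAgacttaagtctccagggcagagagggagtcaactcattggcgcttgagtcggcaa
Ccl8, chr11:82114935-82115234, plus strand: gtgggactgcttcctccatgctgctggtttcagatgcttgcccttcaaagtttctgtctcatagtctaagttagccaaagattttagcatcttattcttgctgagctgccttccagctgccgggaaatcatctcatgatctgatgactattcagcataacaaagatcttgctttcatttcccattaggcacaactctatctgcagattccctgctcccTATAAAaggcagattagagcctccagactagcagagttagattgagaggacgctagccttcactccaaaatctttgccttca
Ccl12, chr11:82101595-82101894, plus strand: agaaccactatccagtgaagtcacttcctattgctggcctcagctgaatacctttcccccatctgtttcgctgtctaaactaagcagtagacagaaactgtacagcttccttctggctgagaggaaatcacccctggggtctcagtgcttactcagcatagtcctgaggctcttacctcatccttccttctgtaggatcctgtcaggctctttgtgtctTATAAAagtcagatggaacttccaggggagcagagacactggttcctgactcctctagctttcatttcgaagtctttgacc
TATAAA began 32 bases before the start in Il1a and Ccl8 and 31 before it in Ccl12, and 13.6% of 32851 RefSeq promoters hold these letters. TGACTCA, the letters that AP-1 factors such as Fos and Jun bind, began 12 bases before the start in Il1a. TGANTCA is in 7.81% of promoters, and these letters were not in the windows of Ccl8 and Ccl12. A match of letters is a description and shows no binding.

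Cytokines outside the chemokines were split. Of 13 tested, 3 rose and 3 fell, with a median of 0.29. Il1b, interleukin 1 beta, was at 12.7, 15.7, 10.8 and 21.9 against 9.94, 10.4, 7.88 and 8.72 (log2 0.34 in AKI, SE 0.08, adjusted p = 0.00883), higher in every library but lost with DESeq2 (adjusted p = 0.259). Tnf and the regulatory cytokine Il10 fell by 1.01 and 1.43 on the log2 scale, and Il10 had the opposite order in CKD 1, with 0.20 against 0.149. Among growth factors 4 of 13 rose and 1 fell, with a median of 0.26. Areg (amphiregulin, a ligand of the EGF receptor) was at 1.09, 0.816, 0.759 and 0.844 against 0.282, 0.0924, 0.402 and 0.0655, higher in every library (log2 2.35 in AKI, SE 0.23, adjusted p = 1.69e-05). Tgfb1, the leading profibrotic factor, was at 2.31 and 2.37 against 1.63 and 1.5 (log2 0.46, adjusted p = 0.00865) and did not pass at 3000 UMIs per cell (adjusted p = 0.146) or with DESeq2 (0.262).

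Antigen presentation and resident macrophage genes were lower in the Fn1-positive cells of AKI. Of 11 MHC class II genes 9 fell and none rose, with a median of -1.19. H2-Aa was at 32.9 and 44.3 against 94.2 and 96.2 (log2 -1.45, SE 0.08, adjusted p = 1.5e-07). In CKD the same gene was at 45.4 and 53.2 against 42.3 and 62.9, so the groups crossed. Cd74 (invariant chain) fell by 1.13 and H2-Eb1 by 1.46 in AKI. Of 8 resident macrophage genes 6 fell. Mrc1, the mannose receptor, was at 0.949, 1.12, 0.56 and 0.675 against 2.79, 3.03, 1.02 and 1.39, lower in every library (log2 -1.62 in AKI, SE 0.11). Cx3cr1, the fractalkine receptor, was at 3.27, 3.19, 2.76 and 1.38 against 3.90, 4.0, 2.09 and 3.20. Its fall of 0.42 (adjusted p = 0.00439) was lost with DESeq2 (adjusted p = 0.15) and against Fn1-negative cells with any Lyz2 (0.0525).

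Of 10 macrophage identity genes, 2 rose (Itgam 0.72, Cd14 0.64) and 5 fell, among them Ms4a7 (log2 -1.56) and Adgre1, which encodes F4/80 (log2 -1.12). The list's summed level was 55.6, 62.3, 50 and 47.8 in Fn1-positive and 55.8, 57.8, 47.5 and 58.8 in Fn1-negative cells. It was 45.02, 47.0, 43.1 and 50.4 in the stricter monocytes, above the Fn1-positive level in CKD 2, so this sum does not separate the cells from monocytes. Csf1r, the receptor for the macrophage growth factor, was at 5.47 and 5.36 against 5.06 and 5.05 in AKI. Of 6 monocyte genes tested, S100a4, Hp and Plac8 rose and F13a1 fell, while Hp was at most 0.169. Genes of other cell types were rare in the Fn1-positive cells, with summed levels of at most 0.386 for dendritic cells, 0.167 for neutrophils, 1.11 for T and NK lymphocytes and 0.759 for B lymphocytes. Flt3, Ly6g, Ncr1, Cd79a and Ms4a1 were at 0 in all 4 libraries.

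Immediate early genes, which tissue dissociation induces, moved with the contrast: 15 of 16 were lower in Fn1-positive cells, with a median of -1.23. Their summed level was 157, 149, 110 and 166 in Fn1-positive and 359, 358, 169 and 220 in Fn1-negative cells, against 142, 137, 89.3 and 87.9 in T lymphocytes of the same libraries. Jun was at 16.2 and 17.3 against 47.1 and 51.5 (log2 -1.68), and Fos at 19.7 and 18.4 against 51.4 and 52.3 (log2 -1.58). Transcripts of the proximal tubule were lower as well (8 of 9 tested), with sums of 5.73 and 4.88 against 17.9 and 10.1 in AKI. Distal nephron genes rose for 3 of 7, and their sums of 14.5 and 5.55 against 4.66 and 3.65 rested on single cells, the highest of which held 40.1% and 74.2% of the Umod UMIs. The part of these transcripts in the other differences was not tested. Interferon-stimulated genes fell for 12 of 21 and rose for 0, led by Ifit2 (log2 -2.08) and Rsad2 (log2 -1.84). Of 24 macrophage transcription factors 3 rose and 10 fell, among them Maf (1.02 and 1.14 against 3.40 and 3.22), a factor of mature macrophages. Bhlhe40 rose by 1.32.

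**Figure D3:**
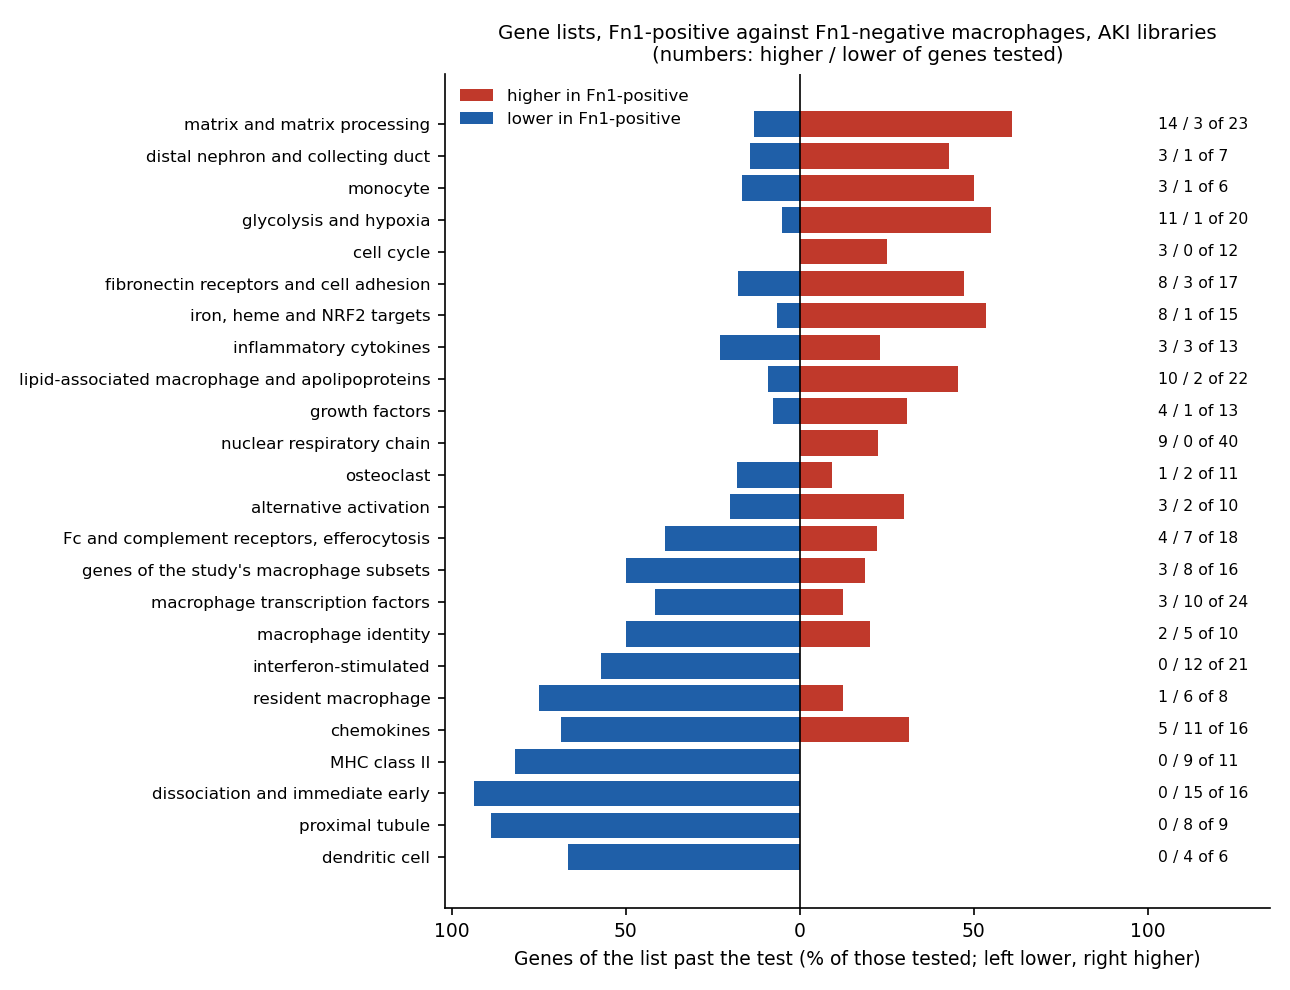
For each gene list with at least 5 genes tested, the percentage of tested genes higher (red, right) and lower (blue, left) in Fn1-positive than in Fn1-negative macrophages of AKI 1 and AKI 2 at an edgeR adjusted p under 0.05, with the counts of genes beside the bars. Matrix genes have 14 higher and 3 lower, and immediate early genes 0 higher and 15 lower, against 9.02% higher and 9.04% lower of all genes.

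Energy genes rose on the side of glycolysis: 11 of 20 glycolysis and hypoxia genes rose and Pfkfb3 fell, with a median of 0.55. Slc16a3, the lactate exporter, was at 0.409, 0.486, 0.52 and 0.506 against 0.056, 0.0504, 0.0552 and 0.121, higher in every library (log2 2.96 in AKI, SE 0.23, adjusted p = 2.27e-06). Eno1 and Pgam1 rose by 1.06 and 1.04. Of 40 nuclear genes of the respiratory chain 9 rose and 0 fell, with a median of 0.22. Of 15 genes of iron, heme and NRF2 handling 8 rose, among them the cystine transporter Slc7a11 (log2 1.09), and Hmox1 (heme oxygenase 1) fell by 0.79.

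Levels by the number of Fn1 UMIs per cell are a description, since the gate used that number and the genes were chosen because they differed across it. Cells with 0, 1, 2, 3 to 5 and over 5 Fn1 UMIs had Ccl8 at 29.9, 27.3, 4.82, 2.39 and 0.33 in AKI 1, and at 28.7, 8.75, 0.34, 1.67 and 1.07 in AKI 2. H2-Aa was at 94.2, 71.0, 48.7, 37.0 and 28.9 in AKI 1 and at 96.2, 50.4, 76.7, 55.5 and 38.2 in AKI 2 in the same order. Crip1 was at 3.49, 5.78, 10.2, 11.8 and 18.2 in AKI 1 and at 3.33, 4.32, 19.6, 11.95 and 17.2 in AKI 2. The order followed the bands step by step for all 3 genes in AKI 1 and for none of them in AKI 2. Cells with 1 Fn1 UMI, just outside the gate, lay between the Fn1-negative and the most Fn1-rich cells for these genes in both AKI libraries. Arg1 was at 0.881 and 1.85 with over 5 UMIs and at 0 with 2 UMIs in both. Bands with few cells carry wide counting error, and bands with more Fn1 also hold deeper cells.

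**Figure D4:**
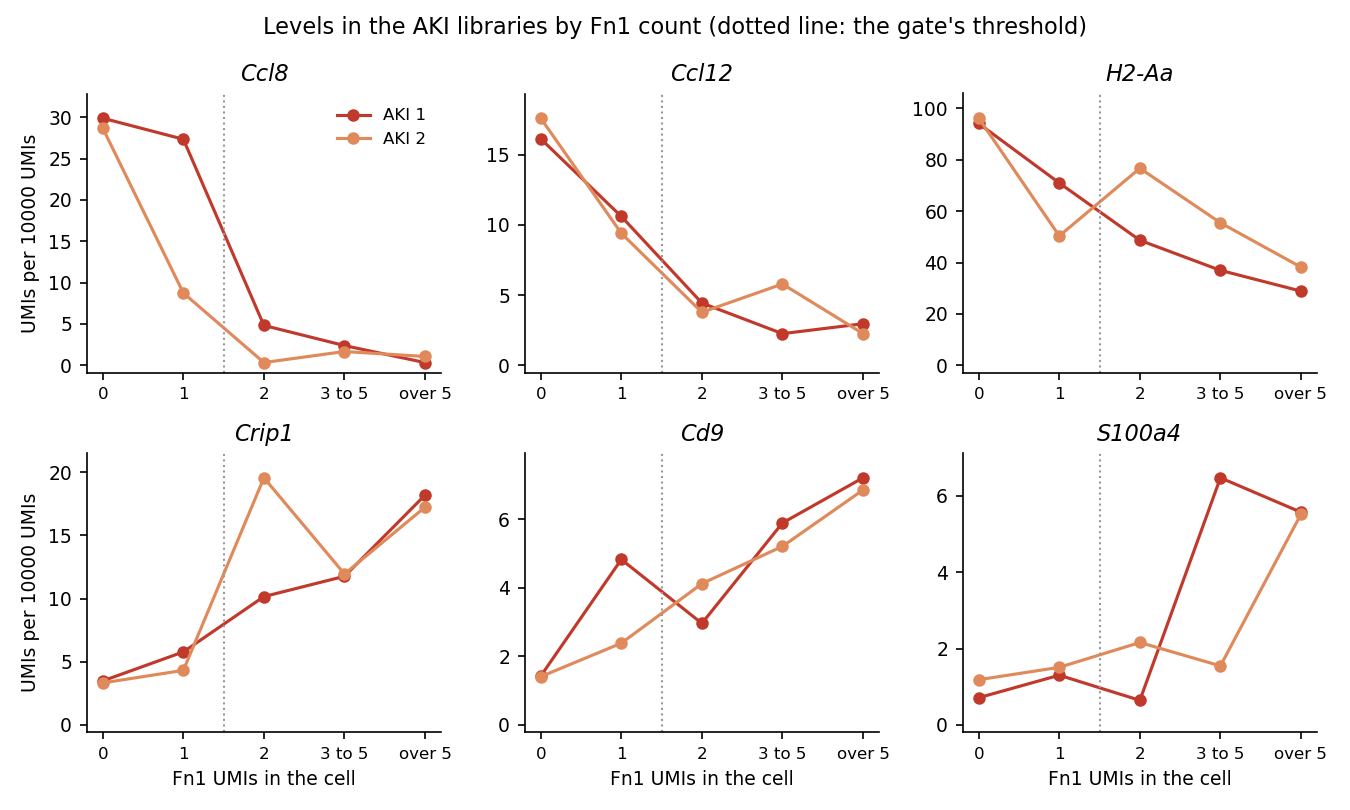
Levels of Ccl8, Ccl12, H2-Aa, Crip1, Cd9 and S100a4 in UMIs per 10000 in macrophages of AKI 1 and AKI 2, by the number of Fn1 UMIs per cell (0, 1, 2, 3 to 5, over 5), with a dotted line at the gate's threshold. Ccl8 goes from 29.9 and 28.7 at 0 Fn1 UMIs to 0.33 and 1.07 at over 5, and Crip1 from 3.49 and 3.33 to 18.2 and 17.2.

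Whether Fn1-positive macrophages of CKD differed from those of AKI was tested over 2 against 2 libraries. Few genes passed: 16 of 6394, or 0.25% of those tested, 4 higher (0.0626%) and 12 lower (0.188%) in CKD, while 733 had an unadjusted p under 0.05. The CKD sums were shallow, with 244294 and 287512 UMIs against 1326229 and 2040606 in AKI. The count rose to 62, 92, 81 and 45 without AKI 1, AKI 2, CKD 1 and CKD 2 in turn, to 52 at 3000 UMIs per cell, and to 39 with DESeq2, which shared 14 of the 16. The p-values measure the spread between these libraries only. The change differed between Fn1-positive and Fn1-negative macrophages for 4 of 9770 genes by the interaction term, 0.0409% of those tested, with 2 in each direction (0.0205% each).

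The genes higher in CKD were S100a4, Tmsb10 and S100a10 by the rule for naming genes. S100a4, a calcium-binding protein of motile cells, was at 5.21 and 4.51 in AKI and at 18.9 and 13.6 in CKD (log2 fold change 1.78, SE 0.19, adjusted p = 0.0247). Tmsb10 (thymosin beta 10, which binds actin) was at 8.77 and 9.26 against 26.6 and 19.7 (log2 1.40, SE 0.18), and S100a10, an annexin A2 partner, at 4.52 and 4.15 against 10.99 and 8.98 (log2 1.24, SE 0.18). Both CKD libraries were above both AKI libraries for the 3, as the rule for naming genes required, and 43.7% of all genes tested had groups that did not overlap in either direction. S100a10 missed the threshold without AKI 2 (adjusted p = 0.0604). All 3 were also higher in CKD among Fn1-negative cells, S100a4 with 12.6 and 8.44 against 0.713 and 1.18, where no gene passed the test. T lymphocytes had S100a4 at 9.07 and 7.54 in CKD against 4.33 and 4.21 in AKI. The fourth gene, Flrt3, was below 1 UMI per 10000 in every library and is named after its values were seen.

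The genes lower in CKD were led by Lcn2, whose AKI level rested on few cells. Lcn2 (lipocalin 2) was at 4.14 and 1.57 in AKI and at 0.040 and 0.034 in CKD, which is 896 UMIs against 2, a ratio of 70.6 (counting interval 19.5 to 584). Lyz1, another lysozyme gene, was at 3.45 and 1.53 against 0.12 and 0.10 (log2 -4.42, SE 0.57), and since its sequence is near that of Lyz2 the split of reads between them is uncertain. Ccl8, already low in Fn1-positive cells, went from 1.30 and 1.14 to 0 and 0.135 (log2 -3.99, SE 0.56, adjusted p = 0.0277). At equal depth a Ccl8 UMI was seen in 10.4% and 11.4% of Fn1-positive cells in AKI, and in 0% and 6.25% in CKD. T lymphocytes at full depth fell as well, with 10.4% and 14.2% in AKI and 0.876% and 0.937% in CKD. Whether the fall in Fn1-positive cells differed from that in T lymphocytes was not tested. Cxcl14 was at 2.43 and 1.80 against 0.44 and 0.371 (log2 -2.34), Syngr1, a vesicle protein, at 1.20 and 1.10 against 0.040 and 0.135 (log2 -3.59), and Ifnb1, interferon beta, at 1.66 and 1.85 against 0.12 and 0.27 (log2 -3.08). The levels in CKD 1 and CKD 2 rested on 3 and 8 UMIs for Ifnb1, 1 and 4 for Syngr1, and 3 and 3 for Lyz1. The CKD libraries were the lower ones throughout, which the same rule required.

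The remaining falls included genes of scavenging and adhesion. Stab1, a scavenger receptor for cell debris, was at 1.92 and 1.77 against 0.60 and 0.405 (log2 -1.85), and Fcrls at 1.56 and 1.64 against 0.080 and 0.338 (log2 -2.82). Neither Stab1 nor Fcrls passed at 3000 UMIs per cell (adjusted p = 0.0906 and 0.172). Itgb5, an integrin beta subunit for vitronectin, was at 2.72 and 2.77 against 0.919 and 0.81 (log2 -1.63, SE 0.22, adjusted p = 0.0277). Fxyd4, a tubule gene, also passed, with 84.8% and 61.8% of its AKI UMIs in 1 cell. The same contrast among Fn1-negative cells gave -0.26 for Stab1, -0.67 for Itgb5 and -1.25 for Fcrls, none of which passed.

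**Figure D5:**
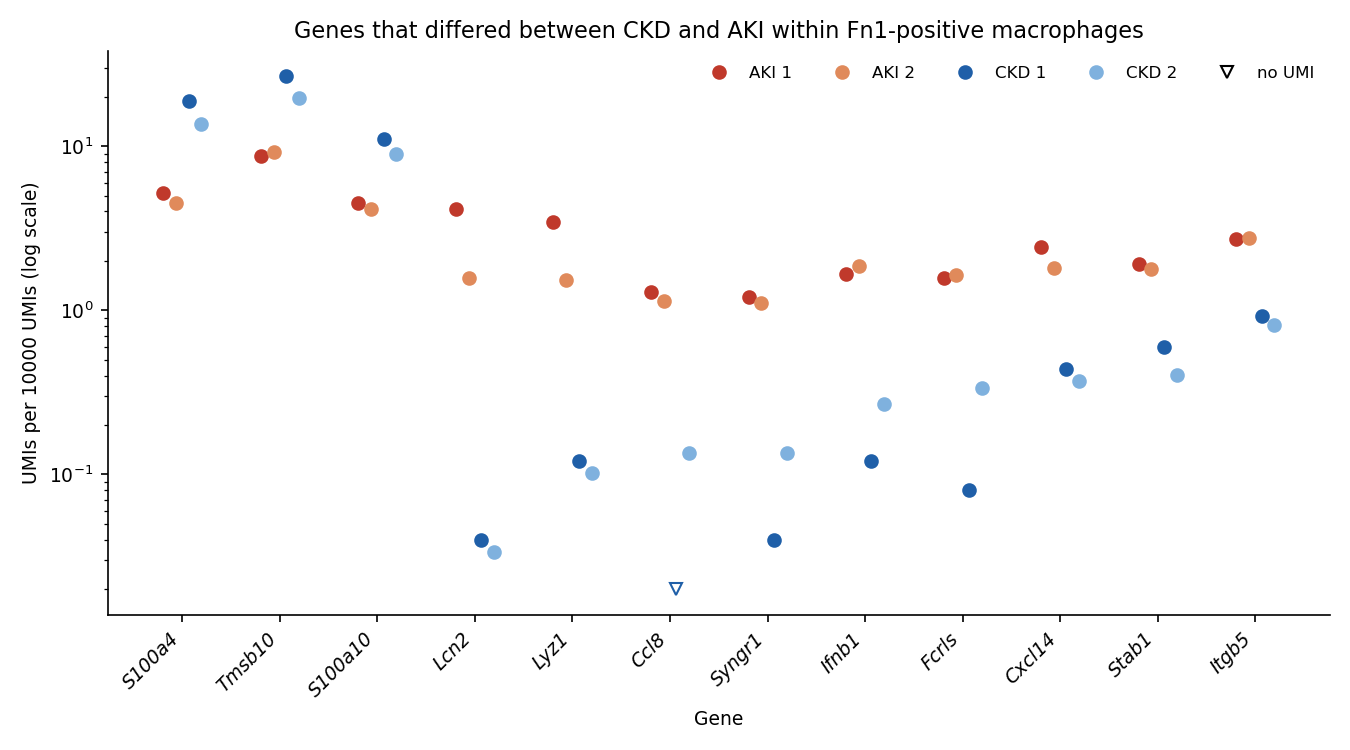
Levels in UMIs per 10000 (log axis) of 12 genes named for CKD against AKI in Fn1-positive macrophages, by library; an open downward triangle at the axis floor stands for no UMI, which applies to Ccl8 in CKD 1. S100a4, Tmsb10 and S100a10 are higher in both CKD libraries and the other 9 genes lower, a separation that the rule for naming genes required.

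Most lists held no gene that passed between CKD and AKI, beside 0.25% of all genes. Of 20 matrix genes 0 passed (median 0.19), of 9 MHC class II genes 0 (median 0.46), of 40 respiratory chain genes 0 (median 0.24), of 17 interferon-stimulated genes 0 (median -0.42) and of 19 lipid-associated genes 0 (median -0.36), where the median of all genes was 0.014. Of the 15 tested genes by which the study described its macrophage subsets, 0 passed. Spp1 had a log2 difference of -1.06 (adjusted p = 0.205) and passed under 6 other settings. Trem2, Cx3cr1 and H2-Aa had differences of -0.51, -0.62 and 0.39. With 34 CKD cells a lack of calls does not show equal levels.

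Against monocytes the Fn1-positive macrophages differed in many genes, and the choice of cells fixed part of this. Members needed at least 5 C1q UMIs and monocytes at most 1, so higher levels of genes that accompany C1q follow in part from the gates. The planned monocyte gate (at most 1 C1q UMI, at least 5 of Ly6c2, Plac8, Chil3 and Hp, and Csf1r) also held tubule RNA, with proximal tubule sums of 21.2 to 115. Genes are therefore named here only where the stricter gate, added after that was seen, called them. The test in AKI called 2948 of 8681 genes, or 34%, 1385 higher (16%) and 1563 lower (18%), of which 1471 were tested and 225 called in the same direction with the stricter gate. The stricter gate was fitted over all 4 libraries and called 402 of 3839 genes, where the planned gate over the same libraries called 1301. Over these 4 libraries Mmp12 was higher by 6.65 on the log2 scale with the planned and by 6.30 with the stricter gate, Trem2 by 4.67 and 2.94, Cd9 by 1.98 and 3.41, Ctsd by 2.06 and 2.16, and Apoe by 3.80 and 2.50. Ccl12 and Ccl8 were also higher than in monocytes, by 4.43 and 3.74 with the stricter gate, although they were lower than in Fn1-negative macrophages. A Ccl8 UMI was also seen in 10.4% and 14.2% of the T lymphocytes of AKI 1 and AKI 2, which limits this reading for Ccl8. Ccr2 and S100a4 were lower than in the stricter monocytes, by -1.22 and -1.52 (edgeR adjusted p = 0.019 and 0.0172). With the planned gate over the same libraries neither was called (adjusted p = 0.648 and 0.284). Ccr2 was then at 0.28, the opposite direction, and S100a4 at -0.38.

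Fn1-positive macrophages were also set beside the macrophages rich in Ctsk (at least 5 UMIs), which numbered 47 in CKD 1, 6 in CKD 2 and 2 in AKI 2. The gates exclude each other on Ctsk, so the values are descriptions. In CKD 1 and CKD 2 the Ctsk-rich cells had Acp5, the acid phosphatase of osteoclasts, at 50.6 and 99.3 and Mmp9 at 23.8 and 33.7, where Fn1-positive cells had Acp5 at 1.36 and 1.28 and Mmp9 at 0.040 and 0.101. Fn1 itself was at 0.11 and 0 in the Ctsk-rich cells. Lyz2 was at 50.6 and 14.1 there against 161 and 120, and H2-Aa at 10.4 and 12.7 against 45.4 and 53.2. Both gates held Spp1, at 30.2 and 6.09 against 14.3 and 22.1, the last with 75% of its UMIs in 1 cell.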

How the data were processed

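Kidney cell suspensions of 1 control, 2 AKI and 2 CKD libraries were counted in droplets. Whole-number counts of UMIs, unnormalized, had been deposited by the authors for every gene in every barcode, made with Cell Ranger (7.2.0 per the labels, 5.0.0 in the AKI and CKD file headers) and STAR on GRCm39 as the paper states, whereas the control gene list names mm10. All libraries list the same 32285 genes. The study's removal of free RNA (CellBender) and of doublets is not in the deposited counts and was not repeated. Cells were gated on raw UMIs, summed per library and compared in R 4.3.3 by the quasi-likelihood test of edgeR 4.0.16 (TMM scaling, filterByExpr, Benjamini-Hochberg adjustment, threshold 0.05). Fold changes are log2. CKD against AKI used 2 against 2 libraries, and Fn1-positive cells were set against Fn1-negative cells and monocytes within AKI 1 and AKI 2 with the library as a block. AKI against control was not run, because the control held 0 Fn1-positive cells. DESeq2 1.42.0, thinning to 3000 UMIs and other gates were alternatives. Python 3.11.15 with numpy 2.4.6, scipy 1.17.1, pandas 2.3.3 and scikit-learn 1.9.0 did the gating. In simulated counts with 200 changed genes, 67% of 4-fold and 22% of 2-fold changes were recovered for CKD against AKI (9 false calls among 6394 genes), and 89% and 59% for Fn1-positive against Fn1-negative cells (4 among 10461). Doublet scores were the share of simulated doublets among a cell's neighbours, and the top 0.8% per 1000 cells were marked.

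Named were the 12 largest rises and falls per test with at least 1 UMI per 10000 in the higher group and the same direction in every library, up to 5 genes per list, the study's subset genes, and genes that later text needed. Some genes that meet it are not reported here. Genes of the gate, Il1a and Apoc2 were not tested. The members and lists were chosen with earlier results of these data known, and an earlier clustering of them already showed Il1a, Apoc2 and Fn1 leading one group of macrophages and Ccl8, Ccl7 and Ccl12 another, so those patterns are no independent support. Coordinates are of GRCm39 and promoters of GRCm38.p6. No promoter of Fn1 or Ccl7 was used here.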

Additional observations from a re-analysis of the deposited data

Results flagged for a closer look

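For 4 of 9770 genes, or 0.0409%, the change from AKI to CKD differed between Fn1-positive and Fn1-negative macrophages by a test of the difference itself (edgeR interaction term, adjusted p under 0.05, 667 at an unadjusted p under 0.05). Egr1, an immediate early transcription factor, differed by 2.19 on the log2 scale (adjusted p = 0.0152). It stayed between 3.77 and 4.86 UMIs per 10000 in Fn1-positive cells of all 4 libraries (log2 change 0.22), and went from 17.7 and 13.8 in AKI to 4.25 and 4.27 in CKD in Fn1-negative cells (-1.97). Ccl7 differed by 1.86 (adjusted p = 0.0282), with a change of 0.62 in Fn1-positive and -1.24 in Fn1-negative cells. Lcn2 differed by -6.03 (adjusted p = 0.0282), with -6.17 in Fn1-positive and 0.13 in Fn1-negative cells, and its Fn1-positive level in AKI rested on few cells. Umod, a product of the thick ascending limb, differed by -3.81 (adjusted p = 0.0384). It was at 9.47 and 3.10 in AKI and at 1.24 and 0.203 in CKD in Fn1-positive cells, against 2.33 and 1.37, then 8.26 and 0.358 in Fn1-negative cells, and 1 cell held 40.1% and 74.2% of the AKI UMIs.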

How the results depend on the processing

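The fall in share from AKI to CKD kept its direction in every setting tried, and its size changed with the denominator, to -0.761 points of all kept cells and -1.91 points of kept cells outside T lymphocytes. Leaving out 1 library in turn gave -10.2 points (without CKD 2) to -5.25 points (without CKD 1).

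For CKD against AKI, the 16 calls became 39 with DESeq2, 229 with no filter on low counts, 102 with at least 3 Fn1 UMIs, 52 at 3000 UMIs per cell, and 45 to 92 without 1 library in turn. Those last fits leave 1 sample in a group, which is assumed to vary like the other group. Chosen after seeing the data, a limit of 1 Fn1 UMI gave 70 calls by edgeR, without Ifnb1 (log2 -0.99, adjusted p = 0.42) and Stab1 (-0.91, adjusted p = 0.245). All macrophages of the gate and Fn1-negative macrophages, added then too, gave 0 each by edgeR (1335 and 1538 genes at an unadjusted p under 0.05). In those cells values turned: Lcn2 0.13, Spp1 0.21, Trem2 0.21 and H2-Aa -0.93 in Fn1-negative cells, and H2-Aa -0.78 in all macrophages of the gate. Fitted with the replicate block, 4 genes passed, 3 of them among the 16. S100a4, Lyz1 and Lcn2 kept their call and the other 9 genes named lost it. Deviations of AKI 1 and CKD 1 from their group means correlated at -0.04 over 6394 genes, so equal numbers were not read as a pairing.

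For Fn1-positive against Fn1-negative cells, the 1890 calls became 535 with DESeq2, 937 at 3000 UMIs per cell and 1199 with no library block. Added after seeing the data, all 4 libraries with members gave 825 (123 without AKI 2, 200 without AKI 1, 878 without CKD 1, 1029 without CKD 2), and the CKD libraries only gave 4. In the CKD libraries only, Syngr1 -0.36, Egr1 0.14, Cd74 0.0057, Ccl2 0.19, Ecm1 -0.0938, Tgfbi -0.0284 and Itgb5 -0.29 had the opposite sign. Ccr2, never called, was at -0.0001 with no filter, -0.11 with at least 3 Fn1 UMIs and -0.0502 over 4 libraries without CKD 1. Of 78 named genes, 63 had the sign of the fit in CKD 1 and 64 in CKD 2. With 2 libraries, leaving 1 out left no residual degrees of freedom, so no such test was made.

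Against monocytes, the 2948 calls became 1242 with DESeq2, and, added later, 1301 over all 4 libraries (337 without AKI 2, 425 without AKI 1, 766 without CKD 1, 2285 without CKD 2), and 212 in CKD only. The stricter gate, fitted over all 4 libraries and so to be read against the 1301, gave 402. The cause of these changes was not tested. No control cell entered a fit, so leaving out control barcodes shared with CKD 2 changed nothing. The 18 and 16 CKD cells limit what could be called.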

Other observations

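Of 10 alternative activation genes tested between Fn1-positive and Fn1-negative macrophages of AKI, 3 rose (Arg1, Retnla and Ear2) and 2 fell, and the median was 0.06. Retnla, a secreted lung and macrophage protein, was at 1.44 and 0.296 UMIs per 10000 against 0.0299 and 0.0056, but only 3 and 7 cells carried it and the highest held 76.1% and 50% of its UMIs. Of 11 osteoclast genes 1 rose and 2 fell, with a median of 0.16. The 1 that rose was Dcstamp, a fusion protein of osteoclast precursors (log2 1.92, SE 0.23, edgeR adjusted p = 0.000107), at 0.226, 0.405, 0.16 and 1.55 in AKI 1, AKI 2, CKD 1 and CKD 2 against 0.0653, 0.0882, 0.0617 and 0.0453. It was higher in the Fn1-positive cells of every library.

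Among 18 receptors for antibodies, complement and dying cells 4 rose and 7 fell, with a median of -0.12. Inhba, a subunit of activin, rose by 1.92 from low levels (0.0146 and 0.21 against 0.0112 and 0.042), and did not pass with DESeq2 (adjusted p = 0.602) or with no library block (0.184).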
